A study of Mus musculus with 8 samples.

Results

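Glutamate receptors and the scaffold proteins of the excitatory postsynapse were compared between total brain of Cstf2D50A mice and of wild-type mice. The genes were taken by symbol from the 2 deposited tables of 3′ end reads. They were AMPA, NMDA, kainate and delta receptor subunits, metabotropic receptors, and the Neto, Cnih, Dlg, Dlgap, Shank, Homer, Grip, CaMKII and neuroligin families. The account covers 47 of the 10060 genes in either table, of which 32 stood in both. Grin2a, Grin2b, Shank3 and some other genes of these families are not analysed here. Genes were matched by symbol alone.

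There were 5 mice carrying Cstf2D50A (mutants 1 to 5), with alanine for aspartate at residue 50 in the RNA-binding motif of CSTF2. This is the subunit of the cleavage stimulation factor that contacts nascent RNA past the poly(A) signal. They were set against 3 wild-type littermates (wild types 1 to 3). All 8 animals were on the C57BL/6NCrl background, untreated, and killed on postnatal day 50, and each library came from total brain of 1 animal. The labels give neither sex nor batch, and the series title links the mutation to intellectual disability and altered 3′ end processing. The questions were whether the site at which an mRNA ends, and the amount of mRNA, differed between the genotypes in these genes.

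At an excitatory synapse, glutamate opens AMPA receptors, which carry the fast current, and NMDA receptors, which let in calcium when the membrane is already depolarised. Calcium activates the kinase CaMKII, and a lattice of PSD-95 type MAGUK proteins (Dlg), Dlgap, Shank and Homer holds the receptors under the membrane and ties them to the cytoskeleton and to metabotropic receptors. Many of these mRNAs have long 3′ untranslated regions, and some are carried into dendrites. Where an mRNA is cut decides which regulatory sequence it carries and, when the cut is in an upstream exon, which C-terminus is encoded.

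The libraries held 10177902 to 13449054 reads in mutants and 9616953 to 17530761 in wild types in the table of proximal and distal sites, and 7768925 to 10279635 in mutants and 7075383 to 13145966 in wild types in the table of upstream and 3′-most exon sites. The counts carry no reading of the substitution itself. Cstf2 stood at 8.33 to 8.74 log2 CPM (reads of a gene scaled by the TMM-adjusted total of its table) across mutant libraries, against 8.38 to 8.63 across wild-type ones, and edgeR gave an adjusted p of 1.00. Markers of the cerebellum divided the mutants. Gabra6, a GABA receptor subunit of cerebellar granule cells, had 0.249, 0.214, 0.0, 0.0 and 29.8 CPM in mutants 1 to 5, against 41.7, 31.9 and 32.5 CPM in wild types 1 to 3. Of the 4 granule cell markers of the second table, 2 were lower and 1 higher in mutants at an unadjusted p under 0.05 (edgeR). Tmem132d, also of that list, went the other way, with 19.6, 16.4, 21.2, 19.3 and 15.0 CPM in the mutants, against 8.34, 12.7 and 17.4 CPM in the wild types. The 9 granule cell markers of the first table summed to 518 to 625 CPM in mutants 1 to 4 and 2182.5 in mutant 5, against 1974 to 2811 in wild types, and 8 of the 9 were lower in mutants at an unadjusted p under 0.05. The 6 Purkinje cell markers summed to 630.0 to 658 CPM in mutants 1 to 4 and 1267 in mutant 5, against 1284 to 1715 in wild types. The 16 markers of cortex and hippocampus summed to 7323 to 8577 CPM in mutants, against 5030.0 to 7946 in wild types, with wild type 1 lowest on their mean log2 level. Mutants 1 to 4 thus stood apart from the other 4 libraries in Gabra6 and in the granule and Purkinje cell sums, although all 8 are labelled total brain. Some other markers divided the libraries differently. Syt1, a neuron marker, had 2111, 1677, 1048, 2082 and 652 CPM in mutants 1 to 5, against 410, 662 and 1543 CPM in wild types 1 to 3. Mutants 1, 2 and 4 and wild type 3 were likewise highest in Slc1a2, Flt1 and Gad1, but lowest in Stmn2, another neuron marker. The granule marker level does not follow this second division. A fit with the granule marker level as a covariate rests for its genotype term on mutant 5, the only mutant in the wild-type range of the first table. Its values are given beside many of the changes that they alter, but not all of them. A change given without such a value may also change sign in that fit. Without mutant 5, genotype and these markers cannot be told apart, since mutants 1 to 4 all lie below the wild types in them. Beyond the covariate fit, the part of these differences in the results that follow was not tested. In bulk tissue, fewer cells of a type and less RNA per cell cannot be told apart.

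Within the 3′-most exon, 42 of the 47 genes have a proximal and a distal site, and all 42 passed the filter on low counts, as did 7876 of 7951 pairs in all. Their sites lay a median of 1103 bases apart, from 25 to 10330, against a median of 626 for all tested pairs, and 12 of the 42 were more than 2000 bases apart. The distal site took over 90% of the wild-type reads in 11 of the genes and under 10% in 6, while 25 used both sites at 10 to 90%. Among all tested pairs, 19.0% lay over 90% and 18.1% under 10%. Positions are those of the deposited table on mm9; it names no chromosome. Grm3, a group II metabotropic receptor gene, had the widest pair, with the proximal site at 9485235 and the distal site at 9474905, and a distal share of 71.5, 75.7, 74.7, 65.0 and 71.6% in mutants 1 to 5, against 80.8, 70.3 and 68.6% in wild types 1 to 3. Both ends of Grm3 were used in every library, and the genotypes overlapped. Camk2b, the gene of the beta subunit of CaMKII, ended almost wholly at its distal site at 5869676, with distal shares of 99.94, 99.93, 99.97, 99.95 and 99.97% in mutants 1 to 5, against 99.95, 99.95 and 99.96% in wild types 1 to 3. Dlg4, which encodes PSD-95, ended almost wholly at its proximal site at 69859034, with distal shares of 0.415, 0.401, 0.311, 0.168 and 0.0230% in mutants 1 to 5, against 0.0605, 0.0766 and 0.197% in wild types 1 to 3. Neither gene had separate genotypes.

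**Figure D1:**
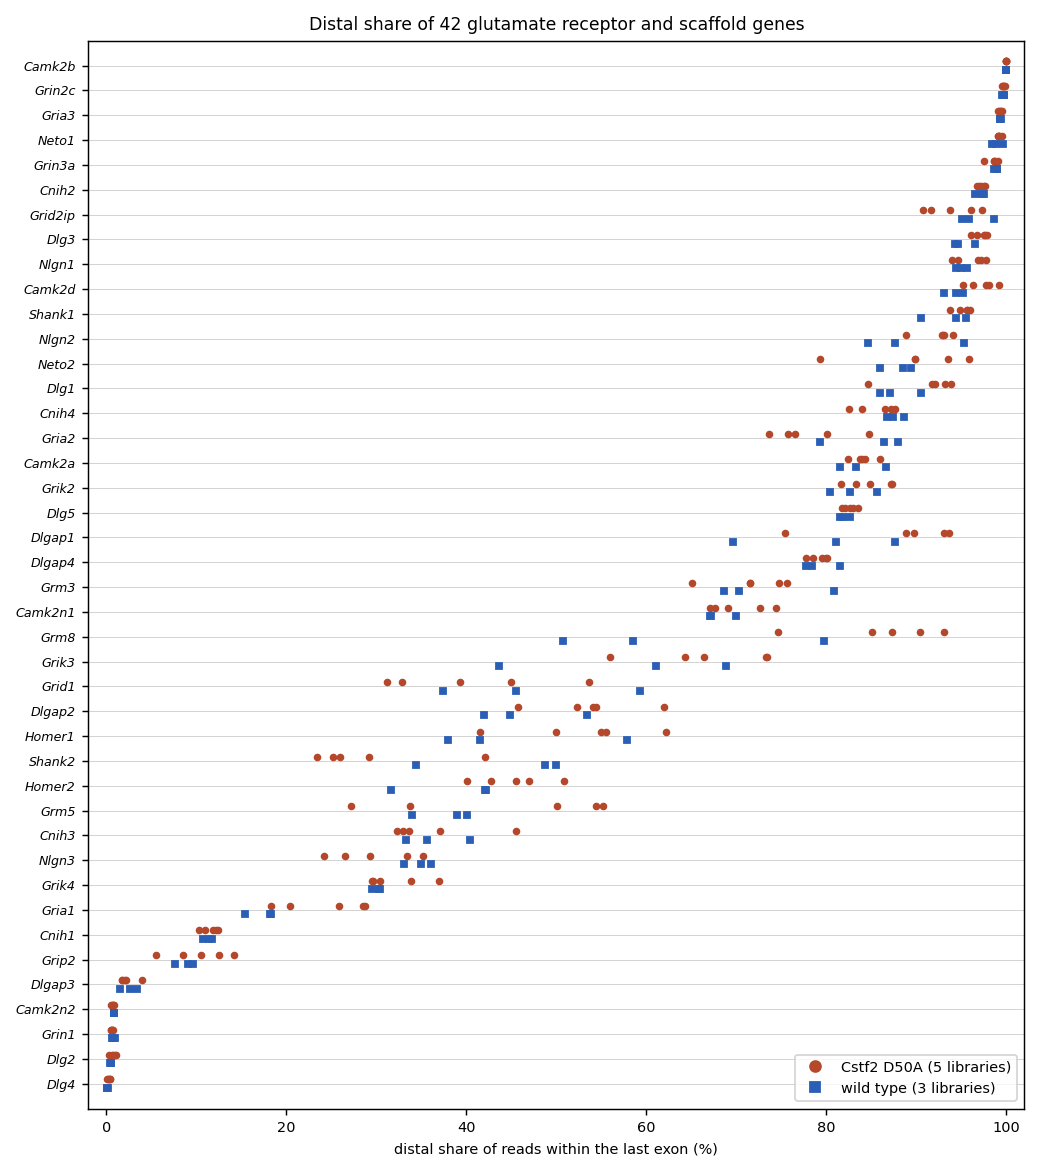
Share of reads at the distal site within the 3′-most exon, in percent, for 42 glutamate receptor and scaffold genes of that table, ordered by the wild-type mean from Dlg4 near 0 to Camk2b near 100%. Red circles are the 5 mutant libraries and blue squares, just under them, the 3 wild-type libraries; in Gria1 all circles lie above the squares, and in the other genes the genotypes overlap.

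The choice between proximal and distal site did not pass the test in any of the 42 genes (edgeR, 0 called of 42, 0.0% of all 7876 pairs; DESeq2 called 0 of the 42, where it called 0.203% of all pairs as positive and 0.0762% as negative, and limma called 0). At an unadjusted p under 0.05, 4 genes had relatively more distal reads in mutants, namely Grm8, Dlg3, Gria1 and Camk2d, where 8.67% of all pairs did. In the other direction 2 did, namely Shank2 and Gria2, where 4.25% of all pairs did. Neither share lies far from that of the whole table. The genotypes did not overlap in 1 gene with higher distal shares in mutants, Gria1 (2.53% of all pairs), and in 0 with lower (1.63%). The median log2 change over the 42 was 0.14, against 0.12 over all pairs, and 27 of 42 were above 0, where 59.2% of all pairs were. The 4 became 8 without mutant 5 and 9 without wild type 3, the 2 became 0 without wild type 1 or 2 and 1 without any of mutants 1 to 4, and the median was 0.084 without mutant 4.

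Among the AMPA receptor genes, Gria1 and Gria2 had changes of opposite sign, neither past the adjusted threshold. Gria1 encodes GluA1, the subunit most tied to activity-dependent insertion at synapses. Its distal site at 57143746 lies 207 bases past the proximal site at 57143539 and took, of the reads at both sites, 28.5, 28.7, 25.9, 20.4 and 18.3% in mutants 1 to 5, against 15.5, 18.2 and 18.3% in wild types 1 to 3. All 5 mutants lay above all 3 wild types, mutant 5 by less than the rounding of these values. The mean share was 24.4 ± 4.78% in mutants (SD, n = 5) and 17.3 ± 1.60% in wild types (SD, n = 3), a log2 change of 0.61 (SE 0.224, edgeR adjusted p = 0.380, 0.0671 to 1.000 over the alternatives), and 0.054 with the granule marker level as a covariate. Gria2 encodes GluA2, which after RNA editing makes AMPA receptors impermeable to calcium. Its distal site at 80489951, 1762 bases from the proximal one, took 73.6, 75.7, 80.1, 76.5 and 84.8% in mutants 1 to 5, against 88.0, 86.4 and 79.2% in wild types 1 to 3. Mutants 3 and 5 lay above wild type 3, so the groups overlapped. The log2 change was -0.63 (SE 0.283, edgeR adjusted p = 0.384, 0.0899 to 1.000 over the alternatives), and it was 0.080 with the same covariate. The third AMPA gene of the table, Gria3, ended at its distal site in 99.3% of mutant and 99.3% of wild-type reads.

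The 3 NMDA receptor genes of the first table, Grin1, Grin2c and Grin3a, all had log2 changes below 0, from -0.46 to -0.23, and none had an unadjusted p under 0.05. Grin1 encodes GluN1, the subunit required in every NMDA receptor. Its distal site at 25139603 took only 0.550, 0.518, 0.579, 0.687 and 0.578% in mutants 1 to 5, against 0.668, 0.929 and 0.729% in wild types 1 to 3. Mutant 4 lay above wild type 1, and the log2 change was -0.46 (SE 0.230, edgeR adjusted p = 0.408, 0.269 to 1.000 over the alternatives). Grin1 overlaps another protein-coding gene, Lrrc26, in RefSeq annotation (GRCm38.p6). The kainate receptor genes Grik2, Grik3 and Grik4 had changes of 0.22, 0.60 and 0.13.

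Among the metabotropic receptor genes of the first table, Grm3, Grm5 and Grm8, Grm8 alone had an unadjusted p under 0.05. It encodes a group III receptor, found mainly on presynaptic terminals. Its sites lie only 48 bases apart, at 27225173 and 27225125, and the distal one took 87.3, 90.5, 93.1, 85.1 and 74.6% in mutants 1 to 5, against 58.5, 50.8 and 79.7% in wild types 1 to 3. Wild type 3 lay above mutant 5, so the groups overlapped by that pair. Grm8 averaged 165.8 reads per library, and the exact 95% binomial interval of a single library reached 12.5 points from the share. Its log2 change was 1.89 (SE 0.549, edgeR adjusted p = 0.380, 0.0625 to 1.000 over the alternatives), and 0.63 with the covariate. Grm5, the gene of a group I receptor that signals through Gq, had a distal share of 50.1, 54.4, 55.2, 27.2 and 33.7% in mutants 1 to 5, against 39.0, 40.1 and 34.0% in wild types 1 to 3; mutants 1 to 3 lay above all wild types and mutants 4 and 5 below them. Binomial intervals cover counting error only, since PCR copies are not separate molecules.

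Among the scaffolds, all 5 Dlg genes had log2 changes above 0, from 0.056 for Dlg5 to 1.14 for Dlg4, and Dlg3 alone had an unadjusted p under 0.05. With the granule covariate the changes of Dlg1, Dlg2 and Dlg4 were -0.49, -0.65 and -2.41, and those of Dlg3 and Dlg5 stayed above 0. The Dlg4 change rests on distal shares of at most 0.415%. Dlg3 encodes SAP102, an X-linked MAGUK whose loss causes intellectual disability in humans. Its distal site at 98013749, 1080 bases past the proximal site, took 97.5, 97.9, 97.6, 96.7 and 96.1% in mutants 1 to 5, against 94.7, 94.3 and 96.5% in wild types 1 to 3. Wild type 3 lay above mutant 5, and the other wild types lay below every mutant. The mean share was 97.2 ± 0.739% in mutants (SD, n = 5) and 95.1 ± 1.16% in wild types (SD, n = 3), a change of 0.81 (SE 0.251, edgeR adjusted p = 0.380, 0.0625 to 1.000 over the alternatives), and 0.26 with the covariate. Shank2, the gene of a scaffold linked to autism, had a distal share of 23.4, 25.2, 29.2, 26.0 and 42.1% in mutants 1 to 5, against 50.0, 48.7 and 34.4% in wild types 1 to 3. Mutants 1 to 4 lay below all wild types, and mutant 5 lay between wild type 3 and wild type 2. The change was -0.95 (SE 0.343, edgeR adjusted p = 0.380, 0.0625 to 1.000 over the alternatives), without mutant 5 it was -1.15 (edgeR adjusted p = 0.0625), and with the granule covariate -0.021. Shank1 differed less, with 0.38. In Dlgap1, the gene of the GKAP protein between PSD-95 and Shank, the distal site took 93.7, 93.1, 88.8, 89.8 and 75.4% in mutants 1 to 5, against 81.1, 69.6 and 87.6% in wild types 1 to 3, with mutants 1 to 4 above every wild type and mutant 5 among them. The Dlgap1 change was 1.05 (SE 0.518, edgeR adjusted p = 0.402), and -0.46 with the granule covariate.

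Among the kinase genes, Camk2d encodes the delta subunit of CaMKII. Its distal site at 126547830, 1790 bases past the proximal site, took 98.01, 99.15, 97.8, 96.3 and 95.2% in mutants 1 to 5, against 94.4, 93.1 and 95.2% in wild types 1 to 3. Only mutant 5 lay within the wild-type range. The change was 1.21 (SE 0.449, edgeR adjusted p = 0.380, 0.0690 to 1.000 over the alternatives), and 0.24 with the covariate. Camk2a, the alpha subunit gene, whose mRNA is carried into dendrites, had a change of 0.024 with distal shares of 85.9, 84.0, 82.4, 84.3 and 83.7% in the mutants, against 86.6, 83.3 and 81.5% in the wild types. The 6 Neto and Cnih genes (Neto1, Neto2 and Cnih1 to Cnih4) ran from -0.25 for Cnih4 to 0.43 for Neto2. The 3 neuroligin genes ran from -0.34 for Nlgn3 to 0.43 for Nlgn1, and none of these 9 had an unadjusted p under 0.05. Nlgn3, an X-linked neuroligin gene linked to autism, had a distal share of 24.2, 26.5, 33.4, 29.2 and 35.2% in mutants 1 to 5, against 36.1, 34.9 and 33.1% in wild types 1 to 3. Mutants 1, 2 and 4 lay below every wild type, mutants 3 and 5 among them, and the change was -0.34 (SE 0.221, edgeR adjusted p = 0.467, 0.215 to 1.000 over the alternatives). With the granule marker level as a covariate it was 0.057.

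**Figure D2:**
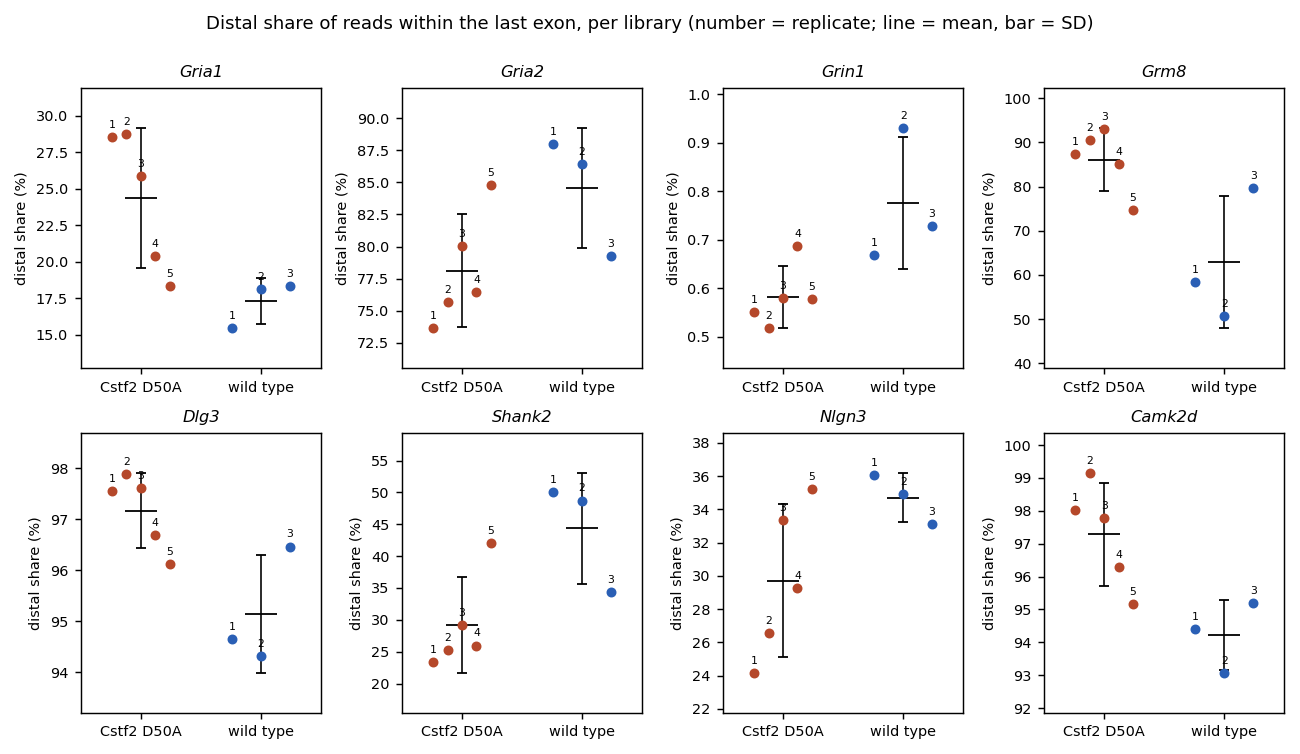
Share of reads at the distal site within the 3′-most exon, in percent, in every library for the 8 genes named by the rule, each on its own scale that does not start at 0. Red points are mutants 1 to 5, blue points wild types 1 to 3, with the mean as a line and the SD as a bar; the genotypes are separate in Gria1 and overlap in the other 7.

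In the table of upstream and 3′-most exon sites, 37 of the 47 genes were present and all 37 passed the filter, as did 6001 of 6147 pairs. Most of them ended in the last exon: its wild-type share had a median of 97.6%, over 90% in 27 genes, 60 to 90% in 6 and under 60% in 4. These 4 are the genes with a much used upstream end. They are Gria4, Grik3, Grm7 and Homer1. The table gives no position for the upstream sites.

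The choice between upstream and 3′-most exon passed the test in 0 of 37 genes (edgeR, 0.0% of all 6001 pairs; DESeq2 called 0 of the 37, where it called 0.0667% of all pairs as positive and 0.0167% as negative, and limma called 0). At an unadjusted p under 0.05, 5 genes had relatively more 3′-most exon reads in mutants (Camk2d, Grid1, Grik3, Shank2 and Dlg4), where 10.4% of all pairs did, and 1 had fewer (Grm3), where 3.63% did. The groups did not overlap in Dlg4, higher in mutants (4.23% of all pairs), and in Grm3, lower (1.65%). The median log2 change was 0.31, against 0.17 over all pairs, and 26 of 37 were above 0, where 62.2% of all pairs were. The 5 became 0 without wild type 1, 1 without mutant 2, 3 without mutant 1 or 4 and 9 without mutant 5 or wild type 3, and the median was 0.058 without wild type 1 and 0.20 without mutant 2. The 1 became 0 without mutant 2 or wild type 2, 3 without mutant 5 and 2 without wild type 3. Without mutant 5, edgeR called Camk2d and Grid1 of the 37, both positive, where 2.85% of all pairs were called in that direction and 1.08% in the other.

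Among the scaffold genes, Dlg4 had a last-exon share of 99.21, 99.08, 99.14, 98.9 and 98.9% in mutants 1 to 5, against 98.5, 98.8 and 98.8% in wild types 1 to 3. All mutants lay above all wild types, on a difference of less than 1 point. The change was 0.46 (SE 0.211, edgeR adjusted p = 0.354, 0.192 to 1.00 over the alternatives). Shank2 gave 96.9, 98.4, 94.0, 98.3 and 92.7% in the mutants, against 76.7, 91.1 and 96.2% in the wild types, with wild type 1 far below the other libraries. Its change was 1.54 (SE 0.630, edgeR adjusted p = 0.309, 0.0624 to 1.00 over the alternatives), 0.83 without wild type 1, and 0.63 with the granule covariate.

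Camk2d had a last-exon share of 90.8, 90.8, 86.1, 90.9 and 78.3% in mutants 1 to 5, against 69.2, 78.7 and 85.1% in wild types 1 to 3. Mutants 1 to 4 lay above every wild type, and mutant 5 lay just below wild type 2. The change was 1.02 (SE 0.384, edgeR adjusted p = 0.301, 0.0442 to 1.00 over the alternatives), without mutant 5 it was 1.28 (edgeR adjusted p = 0.0442), and with the granule covariate 0.17. Grid1, which encodes the delta receptor GluD1, gave 96.9, 97.4, 96.2, 97.0 and 92.8% in mutants 1 to 5, against 90.6, 93.3 and 94.9% in wild types 1 to 3. Mutant 5 lay among the wild types, apart from the other mutants. Its change was 0.92 (SE 0.353, edgeR adjusted p = 0.301, 0.0438 to 1.00 over the alternatives), without mutant 5 1.17 (edgeR adjusted p = 0.0438), and with the granule covariate 0.048.

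Of the 4 genes with a much used upstream end, Grik3, a kainate receptor subunit gene, had a last-exon share of 80.5, 76.1, 60.9, 80.3 and 66.7% in mutants 1 to 5, against 36.7, 61.4 and 64.7% in wild types 1 to 3. Wild type 1 was lowest, and wild types 2 and 3 lay among the mutants. The gene averaged 127 reads per library, with counting intervals of up to 14.1 points, and the change was 1.12 (SE 0.453, edgeR adjusted p = 0.302, 0.119 to 1.00 over the alternatives). Gria4, an AMPA receptor subunit gene expressed strongly in cerebellum, had a share of 34.0, 35.2, 37.5, 34.3 and 47.2% in mutants 1 to 5, against 41.7, 45.1 and 40.2% in wild types 1 to 3. Mutants 1 to 4, the libraries low in granule markers, lay below every wild type, and mutant 5 lay above them. Its change was -0.29 (SE 0.250, edgeR adjusted p = 0.605, 0.291 to 1.00 over the alternatives), and 0.21 with the granule marker level as a covariate.

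Homer1 makes, besides the long scaffold, a short activity-induced protein (Homer1a) that ends early and uncouples metabotropic receptors from Shank; whether the upstream site of the table is that end is not given. Its last-exon share was 54.9, 55.3, 55.9, 54.1 and 43.6% in mutants 1 to 5, against 41.7, 43.7 and 54.3% in wild types 1 to 3. Mutants 1 to 4 and wild type 3 stood together, and mutant 5 with wild types 1 and 2 below them. The change was 0.36 (SE 0.267, edgeR adjusted p = 0.542, 0.244 to 1.00 over the alternatives), and -0.11 with the granule covariate. Grm7, a group III receptor gene with C-terminal splice forms, showed the same arrangement without so clear a gap, with 54.4, 57.5, 48.6, 51.8 and 36.8% in the mutants, against 35.4, 45.5 and 52.4% in the wild types.

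In the other direction, Grm3 had a last-exon share of 85.5, 83.3, 82.7, 86.6 and 87.6% in mutants 1 to 5, against 87.8, 93.8 and 88.1% in wild types 1 to 3. Mutant 5 came within 1 point of wild type 1, and no mutant reached the wild types. The change was -0.68 (SE 0.289, edgeR adjusted p = 0.315, 0.137 to 1.00 over the alternatives). Grik2, another kainate receptor gene, gave 78.4, 82.9, 88.7, 86.7 and 90.6% in mutants 1 to 5, against 90.6, 93.4 and 88.5% in wild types 1 to 3, with mutants 3 and 5 above wild type 3, and a change of -0.74 (SE 0.356, edgeR adjusted p = 0.364, 0.127 to 1.00 over the alternatives). Homer3, a Homer gene of Purkinje cells, gave 96.4, 96.3, 96.2, 96.9 and 98.3% in mutants 1 to 5, against 96.9, 98.3 and 97.7% in wild types 1 to 3, with mutants 1 to 4 below every wild type and mutant 5 above them, and a change of -0.40 (SE 0.331, edgeR adjusted p = 0.586, 0.193 to 1.00 over the alternatives). With the granule marker level as a covariate the changes were 0.37 for Homer3, -0.38 for Grik2 and -0.45 for Grm3.

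**Figure D3:**
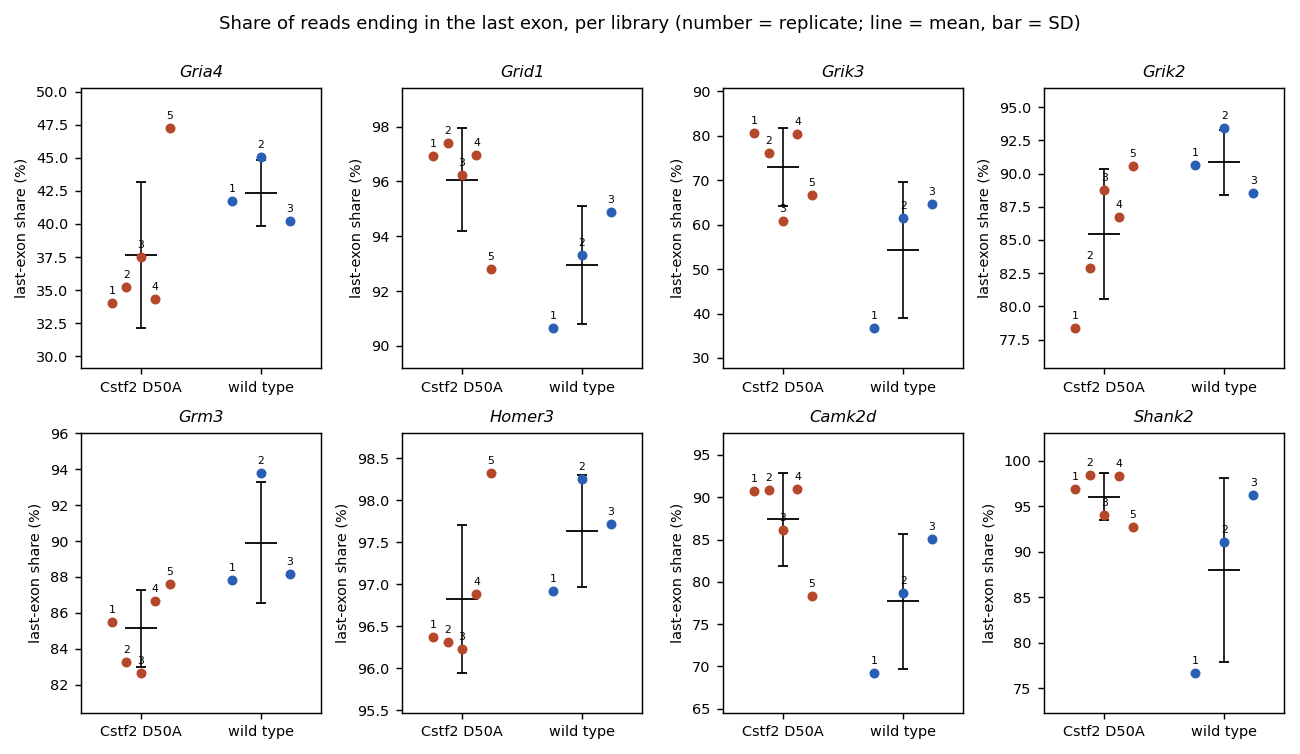
Share of reads in the 3′-most exon rather than an upstream exon, in percent, in every library for the 8 genes named by the rule, each on its own scale that does not start at 0. Red points are mutants 1 to 5, blue points wild types 1 to 3, with the mean as a line and the SD as a bar; Grm3 is lower in all mutants, and in Gria4, Grid1 and Homer3 mutant 5 lies away from the other mutants.

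The amount of mRNA, as the sum of both sites of a table, was compared in the same genes. The 2 tables share reads, so a gene in both is not measured independently there. In the table of proximal and distal sites, edgeR called 0 of 42 genes (0.0% of 7876), DESeq2 called 1, Grm8 (DESeq2 called 0.318% of all genes higher and 0.0127% lower), and limma called 0. At an unadjusted p under 0.05, 7 were higher in mutants (Camk2a, Dlg3, Dlgap2, Gria3, Grik3, Grm8 and Nlgn2), where 7.29% of all genes were, and 3 were lower (Cnih4, Grid2ip and Grin2c), where 7.05% were. The median log2 change was 0.18, against 0.0069 over all genes, and 31 of 42 were above 0, where 50.8% of all genes were. Gria3 and Grm8 were higher in every mutant than in every wild type (2.45% of all genes), and 0 were lower in that way (2.31%). The 7 became 3 without mutant 1 or 2 or wild type 1 and 4 without mutant 3 or 4, the 3 became 1 without any of mutants 1 to 4, 0 without wild type 1 and 5 without wild type 3, and the median was 0.077 without wild type 1. Beside this, the median change of the 16 cortex and hippocampus markers was 0.41, with 13 of 16 above 0. That of the general neuron markers was 0.23 with 9 of 10 above 0, and 0.36 with 6 of 6 above 0 in the second table. The astrocyte markers (5 in the first table) summed to 3392 to 3849 CPM in mutants, against 4111 to 4431 in wild types, and the 4 of the second table to 2944 to 3804 CPM in mutants, against 3888 to 5051 in wild types. These sums were lower in every mutant than in every wild type. The single astrocyte markers were divided, with 2 of 5 above 0 in the first table (median -0.145) and 2 of 4 in the second (median -0.12). Their mean log2 level overlapped between genotypes, at 8.64 to 8.88 in mutants, against 8.82 to 8.96 in wild types, in the first table. The part of these markers in the level results was not tested.

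In the table of upstream and 3′-most exon sites edgeR called 0 of 37 (0.0% of 6001) and DESeq2 and limma 0. At an unadjusted p under 0.05, 6 were higher (Dlg3, Dlgap2, Gria3, Grid1, Grik3 and Grm8; 7.6% of all genes) and 2 lower (Gria4 and Homer3; 7.47%). Grm8 was higher in every mutant than in every wild type (2.28%) and 0 genes were lower in that way (2.5%). The median change was 0.18, against 0.0064 over all genes, and 30 of 37 were above 0, where 50.6% of all genes were. The 6 became 2 without wild type 1, 3 without mutant 1, 10 without mutant 5 and 11 without wild type 3; the 2 became 1 without any of mutants 1 to 4 or wild type 2 and 0 without wild type 1, and the median was 0.074 without wild type 1.

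Among the metabotropic receptors, Grm8 stood at 4.28, 4.15, 3.79, 4.18 and 3.63 log2 CPM in mutants 1 to 5, against 2.87, 2.99 and 3.50 log2 CPM in wild types 1 to 3. Every mutant lay above every wild type. The change was 0.88 (SE 0.212, edgeR adjusted p = 0.343, 0.0499 to 1.000 over the alternatives), and DESeq2 gave an adjusted p of 0.0499. In the other table it stood at 4.87, 4.89, 4.63, 4.85 and 4.43 log2 CPM in the mutants, against 3.87, 3.93 and 4.25 log2 CPM in the wild types, a change of 0.72 (SE 0.160, edgeR adjusted p = 0.327, 0.0409 to 1.000 over the alternatives). With the granule covariate the Grm8 changes were 0.44 and 0.47 in the first and second table. Grm5 gave 6.21, 6.11, 5.89, 6.39 and 6.05 log2 CPM in the mutants, against 6.19, 5.86 and 6.08 log2 CPM in the wild types, overlapping throughout, with a change of 0.094 (SE 0.140, edgeR adjusted p = 0.711, 0.607 to 1.000 over the alternatives).

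Of the AMPA receptor genes, Gria3, an X-linked gene of intellectual disability in humans, stood at 8.80, 8.70, 8.44, 8.65 and 8.62 log2 CPM in mutants 1 to 5, against 8.44, 8.38 and 8.23 log2 CPM in wild types 1 to 3. All mutants lay above the highest wild type, mutant 3 by less than the rounding shown. The change was 0.29 (SE 0.119, edgeR adjusted p = 0.343, 0.164 to 1.000 over the alternatives). In the other table the groups overlapped, with mutant 3 at 8.859 and wild type 1 at 8.863 log2 CPM, and the change was 0.28. Gria1 stood at 9.92, 9.73, 9.16, 9.79 and 8.86 log2 CPM in the mutants, against 8.80, 9.04 and 9.79 log2 CPM in the wild types, a change of 0.28 (SE 0.287, edgeR adjusted p = 0.591, 0.153 to 1.000 over the alternatives). Gria2 stood at 8.08, 7.85, 7.27, 7.94 and 6.59 log2 CPM in the mutants, against 6.69, 6.46 and 7.49 log2 CPM in the wild types, a change of 0.69 (SE 0.348, edgeR adjusted p = 0.352, 0.0889 to 1.000 over the alternatives). In both, mutants 1, 2 and 4 and wild type 3 were the 4 highest libraries, as they were for the marker Syt1. With the granule marker level as a covariate the changes were -0.48 for Gria1 and -0.43 for Gria2.

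Some genes divided as the cerebellar markers did, with mutant 5 in or near the wild-type range. Grin2c encodes GluN2C, the NMDA receptor subunit of mature cerebellar granule cells. It stood at 7.28, 7.26, 7.27, 7.30 and 8.55 log2 CPM in mutants 1 to 5, against 8.19, 8.49 and 8.25 log2 CPM in wild types 1 to 3. Mutants 1 to 4 lay close together and below every wild type, and mutant 5 lay above all wild types. The change was -0.68 (SE 0.303, edgeR adjusted p = 0.343, 0.00317 to 1.000 over the alternatives), without mutant 5 -1.04 (edgeR adjusted p = 0.00317), and with the granule covariate 0.26. Grid2ip, the gene of delphilin, a scaffold protein of Purkinje cell synapses, stood at 3.58, 3.68, 3.68, 3.68 and 5.43 log2 CPM in mutants 1 to 5, against 5.88, 4.92 and 4.88 log2 CPM in wild types 1 to 3. The change was -1.08 (SE 0.453, edgeR adjusted p = 0.343, 0.0145 to 1.000 over the alternatives), without mutant 5 -1.65 (edgeR adjusted p = 0.0145), and with the covariate 0.33.

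In the other table, Homer3 stood at 6.43, 6.49, 6.70, 6.44 and 8.62 log2 CPM in mutants 1 to 5, against 8.43, 8.69 and 8.38 log2 CPM in wild types 1 to 3. The change was -1.25 (SE 0.485, edgeR adjusted p = 0.327, 5.57e-05 to 1.000 over the alternatives), without mutant 5 -1.99 (edgeR adjusted p = 5.57e-05), and with the granule covariate -0.035. Mutant 5 lay inside the wild-type range, and the other mutants lay far below it. Homer3 overlaps another protein-coding gene, Ddx49, in RefSeq annotation (GRCm38.p6). Gria4 stood at 7.46, 7.60, 7.67, 7.58 and 8.16 log2 CPM in mutants 1 to 5, against 8.39, 8.24 and 8.01 log2 CPM in wild types 1 to 3, a change of -0.51 (SE 0.169, edgeR adjusted p = 0.327, 0.0466 to 1.000 over the alternatives), without mutant 5 -0.64 (edgeR adjusted p = 0.0466), and with the covariate -0.12. These are the genes that edgeR called lower once mutant 5 was left out: Grid2ip and Grin2c in the first table, where 0.647% of all genes were called lower, and Gria4 and Homer3 in the second, where 0.732% were. In the same fit of the second table Grm8 was called higher, 0.79 (edgeR adjusted p = 0.0409), where 0.35% of all genes were. The granule cell and Purkinje cell marker sums given above divide the mutants in the same way.

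Grin1 stood at 7.10, 7.13, 7.48, 7.18 and 7.66 log2 CPM in the mutants, against 6.39, 7.54 and 7.19 log2 CPM in the wild types, with wild type 1 lowest, and a change of 0.21 (SE 0.244, edgeR adjusted p = 0.630, 0.504 to 1.000 over the alternatives). Grin3a, the gene of GluN3A, an NMDA receptor subunit most abundant early in life, stood in the other table at 5.79, 5.73, 6.02, 5.71 and 6.02 log2 CPM in mutants 1 to 5, against 5.93, 6.11 and 5.88 log2 CPM in wild types 1 to 3. The genotypes overlapped, with a change of -0.12 (SE 0.125, edgeR adjusted p = 0.6001, 0.398 to 1.000 over the alternatives). Grik3 stood at 3.60, 3.09, 2.75, 3.35 and 2.66 log2 CPM in mutants 1 to 5, against 1.04, 2.23 and 2.67 log2 CPM in wild types 1 to 3. Wild type 1 was far below the rest, wild type 3 lay beside mutant 5, and the change was 0.99 (SE 0.344, edgeR adjusted p = 0.343, 0.0722 to 1.000 over the alternatives). In the other table the Grik3 change was 0.62 (SE 0.215, edgeR adjusted p = 0.327, 0.0716 to 1.000 over the alternatives). With the granule covariate these were 0.40 and 0.37.

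Among the scaffolds, Dlg3 stood at 9.45, 9.24, 9.32, 9.47 and 9.01 log2 CPM in mutants 1 to 5, against 8.40, 8.66 and 9.18 log2 CPM in wild types 1 to 3. Mutant 5 lay below wild type 3, and the other mutants were above every wild type. The change was 0.52 (SE 0.187, edgeR adjusted p = 0.343, 0.0655 to 1.000 over the alternatives), and 0.51 (SE 0.183, edgeR adjusted p = 0.327, 0.0634 to 1.000 over the alternatives) in the other table. With the granule covariate these were 0.17 and 0.25. Dlg4 stood at 10.03, 10.11, 10.26, 9.99 and 10.19 log2 CPM in the mutants, against 9.85, 10.09 and 9.96 log2 CPM in the wild types, a change of 0.15 (SE 0.117, edgeR adjusted p = 0.485, 0.405 to 1.000 over the alternatives). Shank1 stood at 9.15, 9.24, 9.50, 9.21 and 9.63 log2 CPM in the mutants, against 8.11, 9.68 and 9.25 log2 CPM in the wild types, a change of 0.21 (SE 0.288, edgeR adjusted p = 0.688, 0.503 to 1.000 over the alternatives), with wild type 1 more than 1 log2 unit below every other library. Without wild type 1 the Shank1 change was -0.13. Homer1 stood at 5.91, 5.75, 4.99, 5.84 and 4.92 log2 CPM in the mutants, against 5.27, 4.84 and 5.51 log2 CPM in the wild types, a change of 0.31 (SE 0.269, edgeR adjusted p = 0.524, 0.249 to 1.000 over the alternatives), and -0.32 with the granule covariate. In the other table, which also counts its upstream ends, the Homer1 change was only 0.056. Homer1 averaged 1875 reads per library there, against 528 in the first table. All 4 Dlgap genes of the first table were above 0, from 0.088 for Dlgap3 to 1.01 for Dlgap1, whose libraries spanned 7.20 to 9.25 log2 CPM among mutants, against 6.48 to 8.63 among wild types. With the granule covariate the Dlgap1 change was -0.62. In the other table Dlgap2 stood at 4.86, 4.44, 4.68, 4.61 and 4.31 log2 CPM in mutants 1 to 5, against 3.80, 4.26 and 4.32 log2 CPM in wild types 1 to 3. Mutant 5 lay just below wild type 3 and the other mutants above every wild type, with a change of 0.44 (SE 0.174, edgeR adjusted p = 0.327, 0.108 to 1.000 over the alternatives), and 0.20 with the granule covariate.

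Of the kinase genes, Camk2a stood at 11.30, 11.35, 11.37, 11.001 and 11.28 log2 CPM in mutants 1 to 5, against 10.13, 11.13 and 10.86 log2 CPM in wild types 1 to 3. Wild type 1 lay about 1 log2 unit below the mutants, wild type 2 inside their range, and the change was 0.50 (SE 0.208, edgeR adjusted p = 0.343, 0.155 to 1.000 over the alternatives). Camk2b stood at 11.41, 11.38, 11.76, 11.52 and 11.71 log2 CPM in the mutants, against 11.01, 11.82 and 11.61 log2 CPM in the wild types, a change of 0.049 (SE 0.188, edgeR adjusted p = 0.892, 0.624 to 1.000 over the alternatives). Camk2n1, a gene of an endogenous CaMKII inhibitor, stood at 10.08, 10.22, 10.25, 9.98 and 10.21 log2 CPM in mutants 1 to 5, against 10.90, 10.40 and 10.11 log2 CPM in wild types 1 to 3. Wild type 1 was highest, in the reverse of its place for Camk2a, and the change was -0.36 (SE 0.171, edgeR adjusted p = 0.346, 0.0774 to 1.000 over the alternatives), and -0.21 with the granule covariate.

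Cnih4, a member of the cornichon family, which escorts cargo out of the endoplasmic reticulum, stood at 4.14, 4.34, 4.69, 4.32 and 4.45 log2 CPM in mutants 1 to 5, against 5.30, 4.92 and 4.51 log2 CPM in wild types 1 to 3. Mutant 3 lay above wild type 3, and the change was -0.54 (SE 0.191, edgeR adjusted p = 0.343, 0.0665 to 1.000 over the alternatives). Cnih1 of the same family stood at 7.45, 7.46, 7.46, 7.42 and 7.48 log2 CPM in the mutants, against 7.96, 7.76 and 7.38 log2 CPM in the wild types in the other table, a change of -0.27 (SE 0.133, edgeR adjusted p = 0.344, 0.0717 to 1.000 over the alternatives). Nlgn3 stood at 6.21, 6.20, 6.15, 6.48 and 6.05 log2 CPM in the mutants, against 5.66, 6.04 and 6.26 log2 CPM in the wild types, a change of 0.22 (SE 0.157, edgeR adjusted p = 0.447, 0.160 to 1.000 over the alternatives). Nlgn2, the neuroligin of inhibitory synapses, had a change of 0.79 (edgeR adjusted p = 0.343) and Nlgn1, that of excitatory ones, -0.047 (edgeR adjusted p = 0.891). With the granule covariate these were 0.13 and 0.059.

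**Figure D4:**
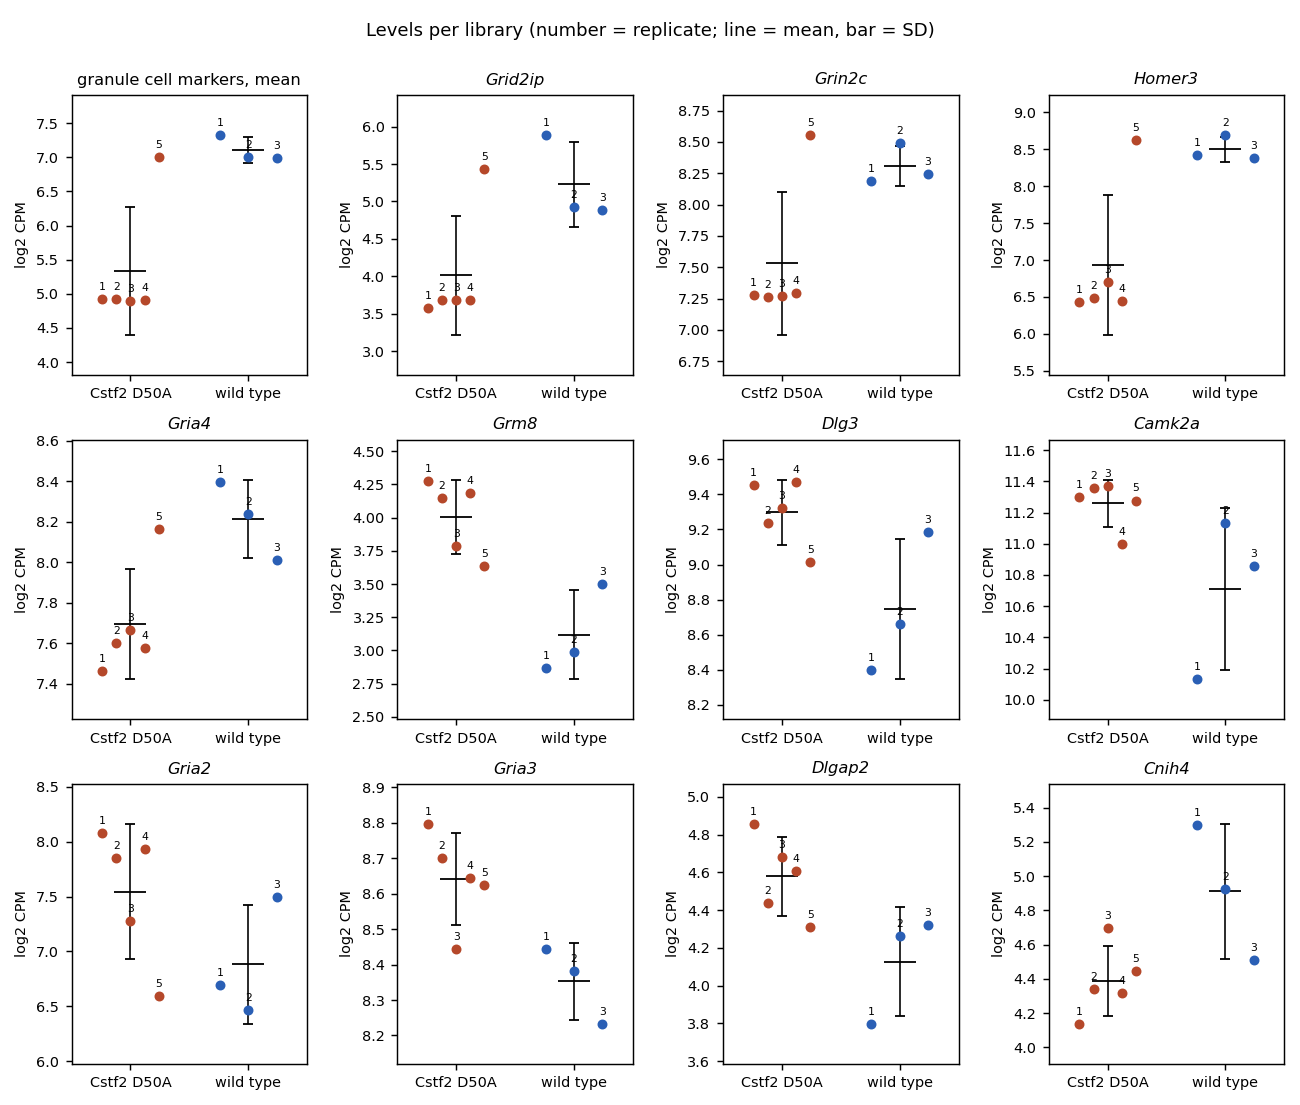
Mean level of the granule cell markers and levels of 11 receptor and scaffold genes (sum of both sites, log2 CPM with TMM scaling) in every library, each on its own scale. Red points are mutants 1 to 5, blue points wild types 1 to 3, with the mean as a line and the SD as a bar; in Grid2ip, Grin2c, Homer3 and Gria4 mutant 5 lies with the wild types, as it does for the markers.

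**Figure D5:**
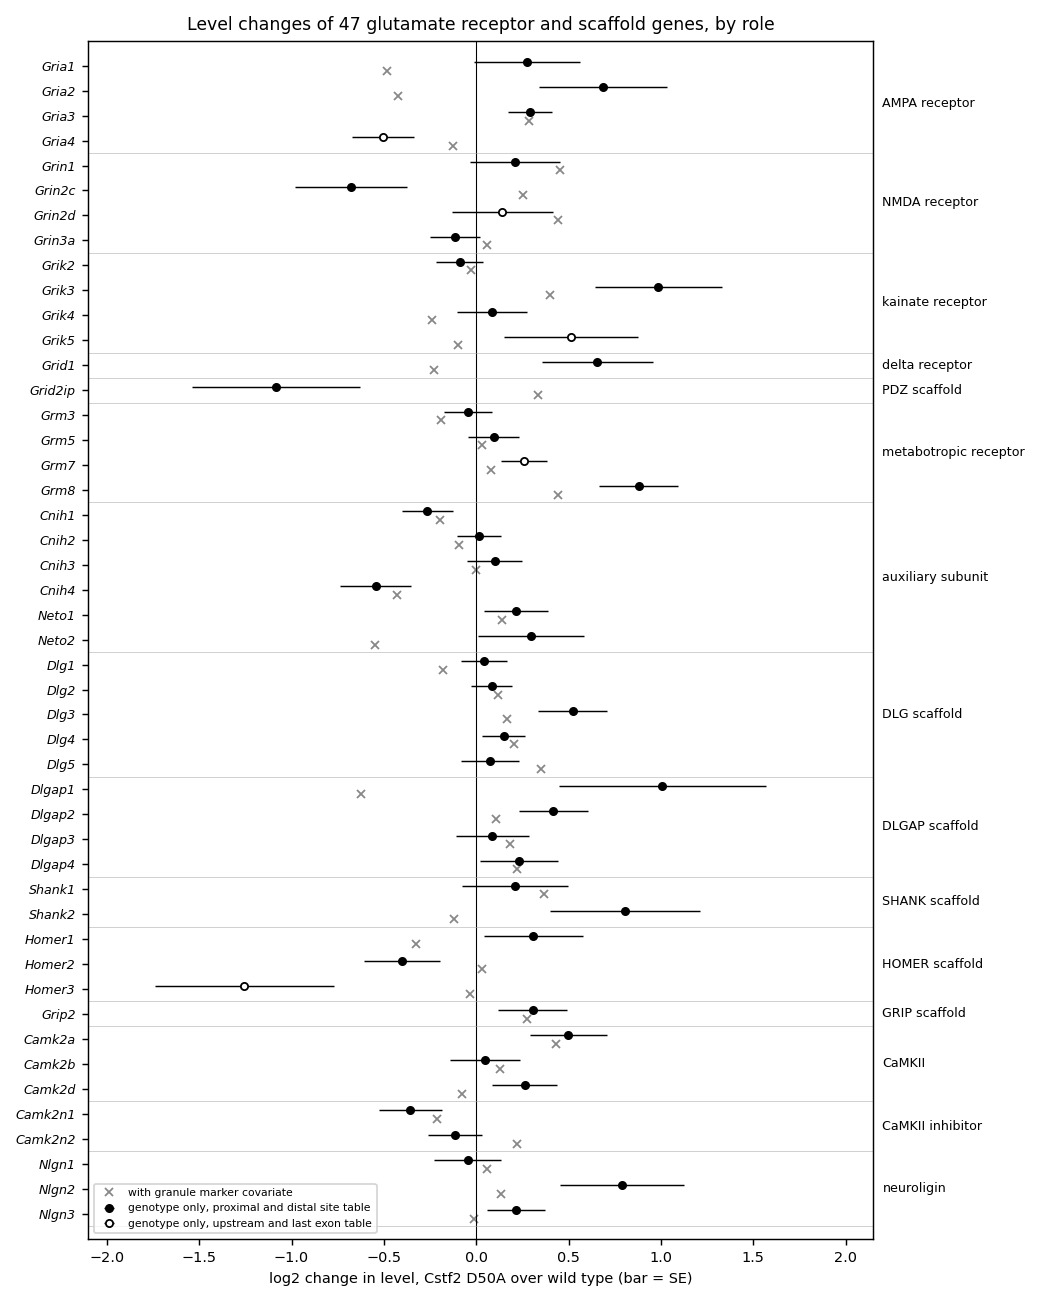
Log2 change of level, mutants over wild types, for the 47 genes grouped by role. Circles with SE bars are the fit with genotype alone (filled from the table of proximal and distal sites, open from the other table where a gene is only there), and crosses the fit with the granule marker level as a covariate; the crosses lie on the other side of 0 from the circles in Gria1, Gria2, Grin2c and Grid2ip, among others.

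For comparison, 65 other genes of the excitatory postsynapse (TARPs and other AMPA receptor partners, regulators of small GTPases, phosphatases and kinases, and adhesion proteins) were counted in the same fits. Of the 49 tested within the 3′-most exon, edgeR called 0, and 3 were positive and 2 negative at an unadjusted p under 0.05, with a median log2 change of 0.015, where 8.67% and 4.25% of all pairs were and their median was 0.12. Of the 43 tested for upstream against 3′-most exon, edgeR called 0, and 7 were positive and 1 negative, with a median of 0.30, where 10.4% and 3.63% of all pairs were and their median was 0.17. In level the counts were 7 higher and 2 lower of 49 with a median of 0.15, and 8 higher and 0 lower of 43 with a median of 0.16, with 0 called by edgeR. Over all genes 7.29% were higher and 7.05% lower in the first table with a median of 0.0069, and 7.6% and 7.47% in the second with a median of 0.0064. Lrrc7, the gene of densin-180, a scaffold that binds CaMKII, had the largest level change of those at an unadjusted p under 0.05 in the first table. That change was 1.38 (SE 0.527, edgeR adjusted p = 0.343), and -0.36 with the granule covariate. In the second table, which also counts upstream ends, the Lrrc7 level change was 0.53 (SE 0.234, edgeR adjusted p = 0.330), and -0.070 with the covariate. The Lrrc7 distal share was 94.95, 92.3, 90.1, 92.9 and 76.0% in mutants 1 to 5, against 67.7, 61.4 and 89.6% in wild types 1 to 3. Wild type 3 stood with mutants 1 to 4, and mutant 5 lay between them and the other wild types. The log2 change in share was 1.70 (SE 0.655, edgeR adjusted p = 0.380), and -0.098 with the covariate. The Lrrc7 level was 7.80, 7.47, 6.79, 7.56 and 5.59 log2 CPM in mutants 1 to 5, against 5.32, 4.91 and 6.69 log2 CPM in wild types 1 to 3. This is the arrangement of Gria2 and Dlgap1: mutants 1, 2 and 4 were highest, and wild type 3 was the highest wild type.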

How the data were processed

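Total brain RNA of 8 animals was made into 3′ end libraries with a QuantSeq REV kit, per the labels' protocols. FastQC 0.11.3, STAR 2.5, HTSeq 0.6.0 and build mm9 are named in the submitters' processing notes. The choice of sites and the use of strand in counting are not given in the sources used here. RefSeq (GRCm38.p6) has another protein-coding gene overlapping 8 of the 47 genes, where reads may be shared. These are Camk2n2, Cnih2, Grik5, Grin1, Grin3a, Grip2, Homer3 and Shank1. Whole-number read counts at each site were deposited, per the file headers, and used unchanged. Columns were matched to samples by library code, and 0 columns stayed unused. Replicate numbers only name libraries, which the labels describe as separate animals. No library was a copy of another of its genotype (chi-square per degree of freedom 4.04 to 115 over pairs).

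Pairs needed a mean of 20 reads per library over both sites and 10 reads in all at each site. For usage, edgeR's quasi-likelihood F test was run on the counts at both sites with a term for each library, which cancels depth, and a site-by-genotype term; positive values mean a larger share of distal or last-exon reads in mutants. For level, the same test was run on summed sites with TMM scaling and a genotype term. SE is the change divided by the root of F. Benjamini-Hochberg adjustment covered every tested pair of a table, at a threshold of 0.05. The alternatives were DESeq2, limma on log2 values, no filter, a filter of 100 and 50 reads, leaving out genes with shared counts, the granule marker level as a covariate, relative log expression scaling for level, and leaving out each library. The software was R 4.3.3 with edgeR 4.0.16, limma 3.58.1 and DESeq2 1.42.0. Only the edgeR fits were run on simulated counts. These had the same spread for every gene and no library differences like those seen here. Of simulated usage changes of 1 log2 unit, 51% were called within the 3′-most exon and 42.4% in the upstream table. For level, 100% and 98.0% were called. With that setting, these rates do not measure how many changes the real counts could reveal.

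The genes and lists were chosen with earlier results of these data known. Some genes of these families are not reported here. Named genes were those past adjusted p 0.05 in edgeR or DESeq2, the 4 with the smallest unadjusted p per direction among genes averaging 50 or more reads, and, for level, a fixed list of well-known receptors and scaffolds. Others are given by group, and those singled out outside this rule were chosen after their values were seen: Dlg4, Homer1 and Grm7 for upstream sites, Grm3, Grm5, Dlg4, Dlgap1, Camk2a and Camk2b for proximal and distal sites, and Lrrc7. Single-library shares have exact (Clopper-Pearson) 95% intervals.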

Additional observations from a re-analysis of the deposited data

Results flagged for a closer look

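In 6 of the 42 named results, 1 of the 5 mutants lay further from its nearest neighbour than Dixon's 95% limit allows (0.71 for 5 libraries). Chance alone marks about 1 in 20 independent groups. Many named results were chosen by their values in these data, and some share genes and reads, so that rate is no measure for them. Mutant 5 was the library in 5 of the 6. Its last-exon share was 47.2% in Gria4, where the other mutants had 34.0 to 37.5%, and 92.8% in Grid1, where they had 96.2 to 97.4%. Its level was 5.43 log2 CPM in Grid2ip, 8.55 in Grin2c and 8.62 in Homer3, above the other mutants in all 3. Its granule marker level was 7.001 (mean log2 CPM), where mutants 1 to 4 had 4.89 to 4.93 and wild types 6.99 to 7.32; the part of this in those values was not tested. The other library was mutant 4, with 11.001 log2 CPM in Camk2a, below the other mutants and above every wild type but wild type 2.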

How the results depend on the processing

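No paired analysis was possible because the labels give no replicate numbers, litters or batches that link mutants to wild types. Of the 612 values that the alternatives gave for the 42 named results, 588 kept direction and side of the threshold, 8 passed it and 16 changed sign. With the granule marker level as a covariate the sign changed in 11: within the 3′-most exon Gria2 became 0.080 and Nlgn3 0.057, in the upstream table Gria4 0.21 and Homer3 0.37, and in level Gria1 -0.48, Gria2 -0.43, Grid2ip 0.33, Grin2c 0.26, Homer1 -0.32, Nlgn3 -0.011 and Grin3a 0.0040. Some that kept their sign came close to 0 with it: Gria1 was 0.054 and Shank2 -0.021 within the 3′-most exon, Grid1 0.048 and Camk2d 0.17 in the upstream table, and Homer3 -0.035 in level. Leaving out single libraries gave level changes of -0.16 to 0.22 for Camk2b, -0.061 to 0.47 for Grin1, -0.0072 to 0.16 for Grm5 and -0.13 to 0.56 for Shank1. The cause was not tested.

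Counts of the receptor and scaffold genes moved as well. Under each of DESeq2, limma and the stricter filter 1 gene was negative within the 3′-most exon at an unadjusted p under 0.05, and under DESeq2 1, Grm8, was called in level. Under limma 3 were positive and 0 negative in the upstream table. With the granule covariate 0 were positive and 1 negative within the 3′-most exon, and 0 and 0 in the other 3 comparisons; the medians were 0.0050 within the 3′-most exon, 0.023 for upstream against 3′-most exon, and 0.057 and 0.043 for level in the first and second table. Leaving out single libraries, the genes called were 0 to 2 in the upstream comparison, 0 to 2 and 0 to 3 in level. Those at an unadjusted p under 0.05 were 3 to 9 positive and 0 to 3 negative within the 3′-most exon, 0 to 9 and 0 to 3 in the upstream table, and 3 to 10 and 0 to 5, and 2 to 11 and 0 to 3, in level. Median level changes were 0.077 to 0.19 and 0.074 to 0.22.

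Over all genes, where edgeR called 0, DESeq2 called 16 positive and 6 negative within the 3′-most exon, 4 and 1 in the upstream table, and 25 and 1 in level. Without mutant 5 edgeR called 2.85% of pairs positive and 1.08% negative in the upstream table, and 17 and 51, and 21 and 44, in level. Without wild type 3 it called 121 and 40 in the upstream table and 1 and 0 within the 3′-most exon. With 3 wild types and 5 mutants, and mutants 1 to 4 low in cerebellar markers, genotype and the share of cerebellar RNA cannot be told apart in those 4. Grm8 and Grik3 rest on few reads, so their shares are imprecise.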
